A study of Mus musculus with 71 samples.

Results

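Cyclins are the regulatory subunits that switch on cyclin-dependent kinases and so drive a cell from one stage of its division cycle to the next. The 9 described here, Ccnd1, Ccnd2, Ccnd3, Ccne1, Ccne2, Ccna2, Ccnb1, Ccnb2 and Ccnf, were chosen by gene name as the cell cycle cyclins and are 9 of the 21527 genes in the count tables. D-type cyclins pair with Cdk4 and Cdk6 and start the phosphorylation of the retinoblastoma protein, E-type cyclins pair with Cdk2 at the entry into S phase, cyclin A2 serves S phase and G2, and the B-type cyclins pair with Cdk1 to drive mitosis. Cyclin F is the substrate-binding part of a ubiquitin ligase and does not activate a kinase. Mouse embryonic stem cells (mESC) cycle fast with a short G1 phase, and their cyclin proteins are made and destroyed with the cycle, on top of any change in the mRNA.

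The study measured RNA decay by SLAM-seq in male mESC. All labelled cells had received 100 µM 4-thiouridine (s4U) for 24 h, after which uridine in excess replaced it, and iodoacetamide made s4U in the RNA read as T-to-C conversions in 3′ end sequencing reads. STM2457 (20 µM), an inhibitor of Mettl3, the enzyme that writes N6-methyladenosine (m6A) on mRNA, or DMSO, its solvent, was present from 6 h ahead of the chase to its end. RNA was taken at 0, 1, 1.5, 2.3, 3.5, 5.3, 8 and 12 h of chase, which is 6 to 18 h of treatment, in 4 replicates per group (only 3 with STM2457 at 3.5 h). There were also 4 libraries per treatment of cells without s4U, whose collection time the labels do not give. This makes 71 libraries in 18 groups, all of 1 cell line, and the paper describes its replicates as biologically independent. Reads counted on genes ran from 4539726 to 7368244 per library in DMSO (36 libraries, median 5465434.5) and from 4704543 to 6804970 under STM2457 (35 libraries, median 5765090). None of the 105 pairs of replicates was identical or within sampling noise.

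Of the 9 cyclins, 8 passed the filter on low counts and entered the tests, which covered 12659 genes. The exception was Ccne2 (chr4:11191351-11204779, plus strand), the second E-type cyclin, with 117 reads in all 71 libraries together, 0 reads in 41 of them and at most 10 in any library. Its reads per group ran from 0 to 16, with more in DMSO at 6 of 8 chase times and more under STM2457 at 2, and it was too low to be tested. Its window of 250 bases may not hold the 3′ end that these cells use, which was not tested. The other 8 had between 247 reads (lowest library of Ccnd3) and 3455 reads (highest library of Ccnb1). Levels are given below as read counts scaled by library size (CPM) with TMM normalisation, a difference was called at an adjusted p-value under 0.01 in edgeR's quasi-likelihood test with Benjamini-Hochberg adjustment over all genes tested, and log2 fold changes carry their standard error (SE).

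A set of 12 libraries stood apart on the leading component of all genes, which held 32.24% of the variance of 8589 genes. They scored −36.4 to −17.0, and the other 59 libraries −9.6 to 11.9. In DMSO they were replicate 4 without s4U, replicate 1 at 0 h, replicates 2, 3 and 4 at 1 h, replicates 2 and 4 at 1.5 h and replicates 3 and 4 at 5.3 h, and under STM2457 replicates 1, 2 and 4 at 1 h. Ribosomal protein genes (78 genes) took 17.08 to 19.75% of their reads, with a median of 18.07%, against 13.02 to 17.28% and a median of 15.72% in the others. Cyclins moved with this component in both directions: over the 71 libraries, which share groups and normalisation, the correlation of log2 CPM with the score was −0.82 for Ccna2, −0.68 for Ccnf and 0.75 for Ccne1, and between −0.27 (Ccnd2) and 0.3 (Ccnb2) for the other 5 tested cyclins. These values mix the component with treatment and chase time. Within groups the correlation was −0.73 for Ccna2, −0.37 for Ccnd2, −0.35 for Ccnf, 0.06 for Ccnd1, 0.42 for Ccnb2, 0.5 for Ccnd3, 0.53 for Ccnb1 and 0.69 for Ccne1. What sets these libraries apart was not tested. Since 9 of the 12 were DMSO libraries, each difference called for a cyclin is also given without all 12, a comparison that was chosen after seeing the data. At 1 h these fits rest on DMSO replicate 1 and STM2457 replicate 3 alone. That time keeps its full weight in the mean over the chase.

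On the scale of CPM per kilobase of counted window, the mean level in DMSO at 0 h was highest for Ccne1, at 667 ± 86.7 (SD, n = 4). Ccnb1 followed with 521 ± 30, Ccna2 with 457 ± 44.2 and Ccnd2 with 422 ± 47.3. Lower levels per kilobase were those of Ccnd3, 376 ± 17.2, Ccnf, 321 ± 26.4, Ccnb2, 271 ± 39.7, and Ccnd1, 175 ± 14.1. The 4 libraries of Ccne1 lay above and those of Ccnd1 below all libraries of the other cyclins. Between them, Ccnb1 and Ccna2, Ccna2 and Ccnd2, Ccnd2 and Ccnd3, and Ccnf and Ccnb2 overlapped, while Ccnd3 and Ccnf did not. Windows ran from 250 bases (Ccne1) to 919 bases (Ccnd1), and since these reads come from the 3′ end of a transcript, the order depends on the division by window length. For Ccnb1 it also depends on multimapping reads: its reads that map to 1 place gave 360.2 ± 33 CPM per kilobase, below the means of Ccna2, Ccnd2 and Ccnd3.

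The first question was whether Mettl3 inhibition altered the cyclin mRNAs. Averaged over the 8 chase times, 4 of the 8 tested cyclins were lower under STM2457, namely Ccna2, Ccnd2, Ccnd3 and Ccnb2, and Ccne1 was higher. These differences are relative to the other genes of a library, since TMM uses no spike-in. A shift shared by most mRNAs would not show in them. The paper warns of bias from scaling to total RNA when most genes respond. For its RNA-seq it used spike-ins or genes without m6A sites. The call of Ccne1 was kept in only 3 of 6 alternatives to the count fit and 1 of 4 fits without a replicate number. Of all genes, 26.5% were called in the mean over the chase, 12.6% as lower and 13.9% as higher, so that calls are common in this comparison. The median log2 fold change was −0.14 over the 8 cyclins and −0.01 over all 12659 genes. In these bulk samples, fewer cells in the stage that expresses a cyclin and less of its RNA per cell cannot be told apart.

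Among the D-type cyclins, Ccnd2 (chr6:127125162-127152193, minus strand) differed most. In DMSO, Ccnd2 averaged 212, 229, 226, 221, 234, 318, 258 and 222 CPM, with SDs from 12.1 to 34.8, at 0, 1, 1.5, 2.3, 3.5, 5.3, 8 and 12 h of chase. Under STM2457, Ccnd2 averaged 179, 198, 172, 194, 174, 187, 194 and 206 CPM, with SDs from 4.48 to 33. The DMSO level peaked at 5.3 h, whereas no such peak appears in the STM2457 means. At that time the 4 DMSO libraries had 273, 341, 349 and 308 CPM and the 4 STM2457 libraries 149, 202, 178 and 217 CPM. All DMSO libraries were above all STM2457 libraries, the ratio of the means was 0.587, and of the DMSO libraries replicates 3 and 4 belong to those apart. The mean was lower under STM2457 at 8 of 8 times, and the groups did not overlap at 4 of them. The mean difference over the chase was −0.34 (SE 0.036, adjusted p = 1.61e-12) and without the libraries apart −0.38 (SE 0.04, adjusted p = 2.02e-13).

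Ccnd3 (chr17:47505051-47599691, plus strand), the D-type cyclin best known from lymphocytes, was also lower under STM2457. In DMSO, Ccnd3 averaged 97, 83.9, 90.7, 94.5, 92.3, 95.6, 114 and 100.3 CPM, with SDs from 4.45 to 15.8, in the same order of times. Under STM2457, Ccnd3 averaged 93.5, 70.1, 78.4, 90, 76.6, 77.2, 86.8 and 80.7 CPM, with SDs from 3.71 to 20.6. The ratio of the means was highest at 0 h, 0.965, and lowest at 8 h, 0.758. At 8 h the DMSO libraries had 104, 124, 105 and 125 CPM and the STM2457 libraries 83, 87.5, 98.9 and 77.8 CPM. The groups did not overlap at 8 h, nor at 3 other times, and the STM2457 mean was lower at 8 of 8. The mean log2 fold change was −0.23 (SE 0.045, adjusted p = 2.04e-05), and without the libraries apart −0.25 (SE 0.046, adjusted p = 1.03e-05).

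Ccnd1 (chr7:144929931-144939925, minus strand), the D-type cyclin that responds to growth factor signals in many cells, was not called for treatment. In DMSO, Ccnd1 averaged 160.4, 159, 158, 160.1, 165, 164, 157 and 127 CPM, with SDs from 5.44 to 16.9. Under STM2457, Ccnd1 averaged 169.6, 151, 158, 160.3, 142, 132, 149 and 142 CPM, with SDs from 3.96 to 19.7. The STM2457 mean was the lower at 5 times and the higher at 3, with ratios from 0.804 at 5.3 h to 1.12 at 12 h and no overlap at 2 times, both with STM2457 below. The mean log2 fold change was −0.05 (SE 0.035, adjusted p = 0.229). In DMSO the highest mean of Ccnd2 was at 5.3 h, the highest of Ccnd3 at 8 h and the lowest of Ccnd1 at 12 h, and whether the time courses of these 3 genes differ was not tested.

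Ccne1 (chr7:38097984-38107534, minus strand), the E-type cyclin tested here, was the 1 member called higher. In DMSO, Ccne1 averaged 167, 136, 149.6, 179.7, 180.5, 141, 188 and 178 CPM, with SDs from 2.75 to 32.1. Under STM2457, Ccne1 averaged 178, 154, 195, 195, 186, 164, 177 and 189.8 CPM, with SDs from 2.81 to 25.6. The widest gap was at 1.5 h, where DMSO libraries had 146, 148, 152 and 152 CPM and STM2457 libraries 195, 194, 207 and 185 CPM. These groups did not overlap, as also at 1 other time, and the STM2457 mean was the higher at 7 of 8 times. Of that DMSO group replicates 2 and 4 belong to the libraries apart, and replicates 1 and 3, which do not, had similar values. The mean log2 fold change was 0.13 (SE 0.041, adjusted p = 0.0082). It was 0.08 (SE 0.04, adjusted p = 0.119) without the libraries apart, so that the call was lost. In that fit with reads that map to 1 place it was also lost (0.09, adjusted p = 0.091). With no filter on low counts (0.13, adjusted p = 0.016) and without replicate 2, 3 or 4 the call was lost as well. Without these replicates the log2 fold changes were 0.12, 0.12 and 0.11 (adjusted p = 0.08, 0.072 and 0.053), near the value with all libraries.

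Ccna2 (chr3:36564865-36572150, minus strand), the A-type cyclin of dividing somatic and stem cells, was lower under STM2457, with a gap in the means from the start of the chase. In DMSO, Ccna2 averaged 233, 263, 236, 192, 178, 237, 174 and 169 CPM, with SDs from 8.62 to 36.6. Under STM2457, Ccna2 averaged 175, 215, 156, 155, 155, 157, 154 and 137 CPM, with SDs from 10 to 33. The DMSO means were high at 0 to 1.5 h and again at 5.3 h, the times at which DMSO libraries stood apart. The lowest ratio, 0.661, was at 1.5 h, with 214, 232, 248 and 251 CPM in DMSO and 161, 174, 143 and 147 CPM under STM2457. All DMSO libraries were above all STM2457 libraries there, in DMSO replicates 1 and 3, which are not apart, as well as in 2 and 4. The STM2457 mean was lower at 8 of 8 times, without overlap at 3. The mean log2 fold change was −0.36 (SE 0.04, adjusted p = 1.58e-11), and −0.35 (SE 0.043, adjusted p = 4.48e-11) without the libraries apart.

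Among the B-type cyclins, Ccnb2 (chr9:70407692-70421547, minus strand), which is found at the Golgi apparatus, was lower under STM2457. In DMSO, Ccnb2 averaged 95.4, 82.9, 87.4, 101, 99.2, 80.7, 91.9 and 89.1 CPM, with SDs from 3.95 to 21.8. Under STM2457, Ccnb2 averaged 82.2, 69, 84, 78.9, 77, 79.3, 78.8 and 77.8 CPM, with SDs from 3.32 to 13.7. The lowest ratio was 0.777 at 3.5 h, where DMSO libraries had 102, 96, 105 and 93.7 CPM and the 3 STM2457 libraries 80.6, 74 and 76.5 CPM. The groups did not overlap at this time and at 1 other, and at 5.3 h the ratio was 0.983. The mean log2 fold change was −0.21 (SE 0.048, adjusted p = 2.40e-04), and −0.26 (SE 0.052, adjusted p = 2.16e-05) without the libraries apart. Neither Ccnb1 (chr13:100778650-100786570, minus strand), the B-type cyclin needed for mitotic entry, nor Ccnf (chr17:24222198-24251484, minus strand) was called in the mean over the chase, with log2 fold changes of −0.06 (SE 0.034, adjusted p = 0.184) and −0.08 (SE 0.04, adjusted p = 0.131). The STM2457 mean of Ccnb1 was lower at 4 times and higher at 4. All its STM2457 libraries were below all DMSO libraries at 3 times and above them at 0. For Ccnf the STM2457 mean was lower at 5 and higher at 3, without overlap at 1. Both changed with time.

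**Figure D1:**
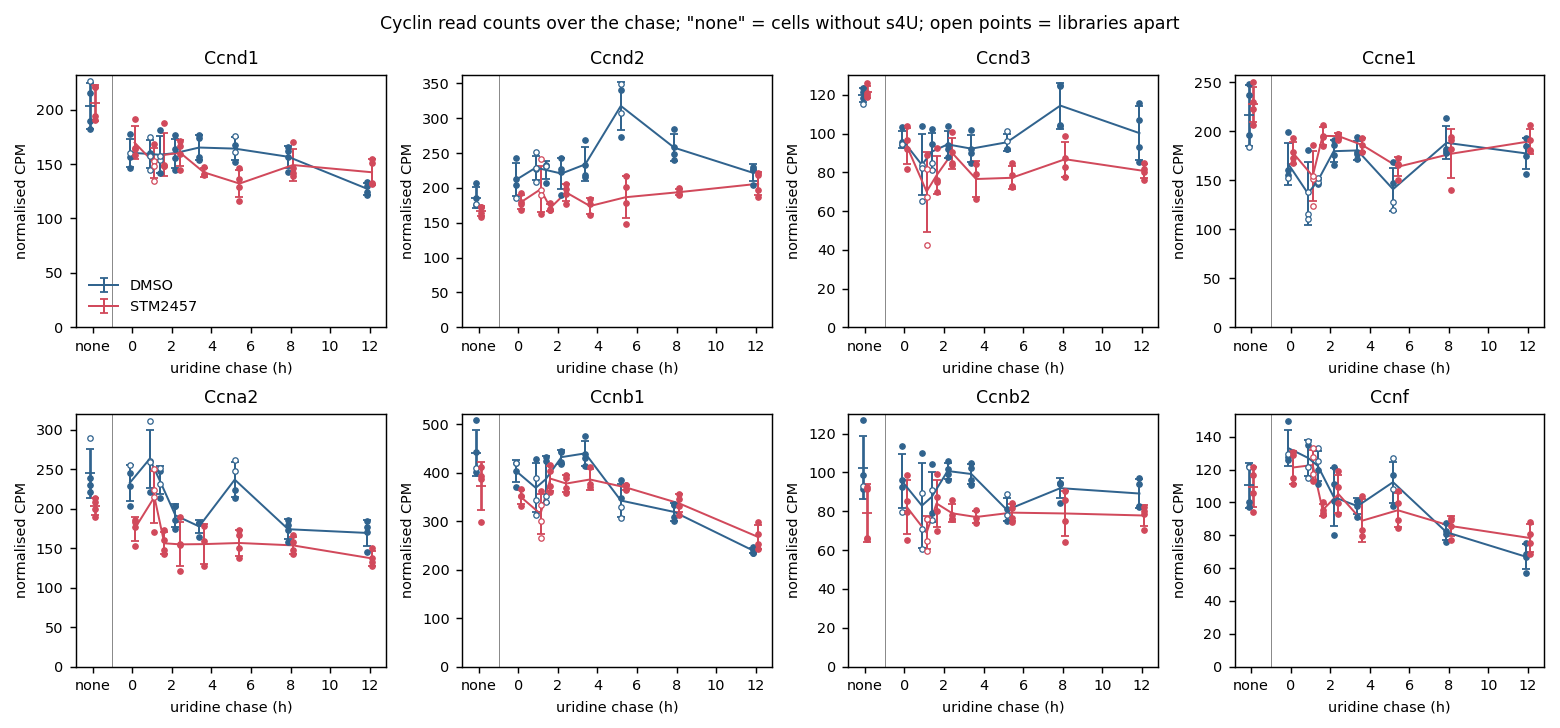
Normalised CPM of 8 cyclins against hours of uridine chase, with cells without s4U at the left of each panel. Points are libraries (open for the 12 that stood apart), lines join group means and bars are SDs, in DMSO (blue) and under STM2457 (red). Ccnd2 in DMSO reached 318 CPM at 5.3 h against 187 CPM under STM2457, and Ccnb1 and Ccnf fell in both treatments.

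At single times the same test gave fewer calls. At 0 h of chase, after 6 h of inhibitor, edgeR called 0 of 8 cyclins and 1.68% of all genes, 3 cyclins had an unadjusted p under 0.05, and DESeq2 called 1. That 1 was Ccna2, at 255, 245, 203 and 228 CPM in DMSO and 183, 186, 177 and 152 CPM under STM2457. The highest DMSO library, replicate 1, belongs to the libraries apart. The groups did not overlap, and the log2 fold change was −0.42 (SE 0.112, adjusted p = 0.018) in edgeR. It was called without DMSO replicate 3 (−0.50, adjusted p = 0.0087 in edgeR) and by DESeq2 (−0.43, adjusted p = 0.005). At 12 h, after 18 h of inhibitor, edgeR and DESeq2 each called 0 of 8 with 5.41% of all genes called by edgeR, and 3 cyclins had an unadjusted p under 0.05: Ccna2 at a log2 fold change of −0.30, Ccnd3 at −0.31 and Ccnf at 0.23.

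Cells without s4U give the treatment difference free of the label. There edgeR and DESeq2 each called 0 of 8 cyclins, edgeR called 2.58% of all genes, and 3 cyclins had an unadjusted p under 0.05. These were Ccnb2 at a log2 fold change of −0.38 (SE 0.133, adjusted p = 0.079), Ccna2 at −0.27 (SE 0.112, adjusted p = 0.147) and Ccnb1 at −0.24 (SE 0.095, adjusted p = 0.117). Ccna2 libraries had 221, 229.8, 238 and 289.9 CPM in DMSO and 189.8, 199.5, 213 and 209 CPM under STM2457. The DMSO libraries of Ccna2 were all the higher, and the highest of them, replicate 4, belongs to the libraries apart. Ccnd2 had a log2 fold change of −0.16 and Ccnd3 of 0.02 in these cells. The label itself, tested as 0 h against no s4U, gave 0 of 8 calls in edgeR and in DESeq2 in both treatments, with 0.513% of all genes called in DMSO and 0.521% under STM2457. Unadjusted p-values were under 0.05 for 4 cyclins in DMSO and 3 under STM2457, and Ccnd1, Ccnd3 and Ccne1 were among them in both, with log2 fold changes of −0.34, −0.30 and −0.38 in DMSO and −0.28, −0.38 and −0.35 under STM2457. Without the libraries apart, Ccne1 was called under STM2457 (−0.36, adjusted p = 0.0088 in edgeR), although none of the libraries in that contrast is apart. The 2 label comparisons and the comparisons at 0 h share libraries.

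The second question was how cyclin mRNAs changed as the chase went on. From 0 to 12 h in DMSO, 4 of 8 cyclins fell, Ccnf, Ccnb1, Ccna2 and Ccnd1, and 0 rose. Of all genes 13% were called in edgeR, and 8.2% as lower. The median log2 fold change was −0.22 over the cyclins and 0.04 over all genes. Under STM2457, 2 of 8 fell, Ccnf and Ccnb1, with 4.72% of all genes called, and the medians were −0.23 and −0.001.

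With all reads counted, Ccnf had the largest fall in log2 fold change among the cyclins, while with reads that map to 1 place that of Ccnb1 in DMSO was the larger (−1.18 against −1.03). In DMSO, Ccnf averaged 133, 127, 122, 103, 97.7, 112, 81.8 and 67 CPM, with SDs from 4.71 to 17.7. Under STM2457, Ccnf averaged 121, 123, 95.3, 105, 88.8, 95.2, 85.5 and 78.2 CPM, with SDs from 3.66 to 13.1. At 0 h DMSO libraries had 129.5, 149, 126 and 128 CPM, and at 12 h 75.3, 57.1, 66.8 and 68.6 CPM. The corresponding STM2457 libraries had 130.5, 129, 111 and 115 CPM and 81, 75.5, 88.1 and 68.4 CPM. Groups at 0 and 12 h did not overlap in either treatment. The log2 fold change was −0.99 (SE 0.112, adjusted p = 2.33e-10) in DMSO and −0.63 (SE 0.111, adjusted p = 4.55e-05) under STM2457. Without the libraries apart it was −1.02 (SE 0.119, adjusted p = 2.65e-11) and −0.61 (SE 0.111, adjusted p = 1.37e-05).

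Ccna2 fell in DMSO from 255, 245, 203 and 228 CPM at 0 h to 184, 177, 171 and 145 CPM at 12 h. The groups did not overlap, and the log2 fold change was −0.46 (SE 0.112, adjusted p = 0.0015), or −0.43 (SE 0.105, adjusted p = 9.09e-04) without the libraries apart. The call held in 8 of 12 fits with libraries left out. It was lost without DMSO replicate 4 at 12 h (−0.41, adjusted p = 0.011) and when replicate 1, 2 or 4 was left out of every group (−0.46, −0.47 and −0.43, adjusted p = 0.011, 0.016 and 0.017). Under STM2457 the log2 fold change was −0.35 (SE 0.113, adjusted p = 0.035). Ccnd1 libraries in DMSO went from 160.5, 147, 178 and 157 CPM to 133, 121, 124 and 129.8 CPM, again without overlap. Its log2 fold change was −0.34 (SE 0.097, adjusted p = 0.0079), close to the threshold: without replicate 1, 3 or 4 at 0 h it was −0.35, −0.31 and −0.35, without replicate 2, 3 or 4 at 12 h it was −0.34, −0.34 and −0.36, and in each of these 6 fits it was no longer called (highest adjusted p = 0.023). With replicate 1, 2, 3 or 4 left out of every group it was −0.36, −0.37, −0.27 and −0.38 (adjusted p = 0.03, 0.033, 0.087 and 0.017), so that 2 of 12 such fits kept the call. No filter on low counts also ended the call (adjusted p = 0.033), while the fit without the libraries apart gave −0.36 (SE 0.103, adjusted p = 0.0068). Under STM2457 it was −0.25 (SE 0.097, adjusted p = 0.088). For the 4 cyclins not called in DMSO, log2 fold changes were −0.10 (Ccnb2), 0.05 (Ccnd3), 0.07 (Ccnd2, −0.01 without the libraries apart) and 0.09 (Ccne1).

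Ccnb1 needs its reads described by kind, since 32.6% of them map to more than 1 place, against at most 1.61% for any other tested cyclin. Counted with all reads, Ccnb1 in DMSO averaged 404, 369, 386, 432, 439.8, 342, 319 and 239 CPM, with SDs from 5.46 to 50.3. Under STM2457, Ccnb1 averaged 350, 315, 388, 378, 386, 369.7, 337 and 267 CPM, with SDs from 4.64 to 41.9. From 0 to 12 h, libraries went from 419, 370.5, 420.1 and 404 CPM to 246, 234, 241 and 235 CPM in DMSO and from 366, 332, 351 and 351 CPM to 243, 253, 274 and 299 CPM under STM2457. The groups at both ends did not overlap in either treatment. The log2 fold change was −0.76 (SE 0.095, adjusted p = 4.96e-09) in DMSO and −0.39 (SE 0.095, adjusted p = 0.0036) under STM2457. The STM2457 call was lost without replicate 1 or 3 at 0 h (−0.35 and −0.38), without replicate 1 or 2 at 12 h (−0.33 and −0.35) and with no filter on low counts (−0.38), at adjusted p-values up to 0.03. With replicate 1, 2, 3 or 4 left out of every group it was −0.32, −0.39, −0.40 and −0.43 (adjusted p = 0.044, 0.046, 0.037 and 0.012), so that 4 of 12 fits with libraries left out kept the call. Fitted without the libraries apart the values were −0.76 (SE 0.086, adjusted p = 1.30e-11) and −0.37 (SE 0.08, adjusted p = 3.20e-04).

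With only reads that map to 1 place, the DMSO fall was deeper, and the treatments differed. At 0 h these reads gave 314, 255, 281 and 265 CPM in DMSO and 258, 228, 231 and 251 CPM under STM2457. At 12 h they gave 136, 122, 124 and 125 CPM in DMSO and 173, 176, 185 and 203 CPM under STM2457. All STM2457 libraries at 12 h were thus above all DMSO libraries. The log2 fold change over the chase was −1.18 (SE 0.097, adjusted p = 1.78e-15) in DMSO and −0.39 (SE 0.096, adjusted p = 0.0052) under STM2457. Its difference between treatments was 0.79 (SE 0.136, adjusted p = 8.89e-05), and the treatment difference at 12 h 0.56 (SE 0.097, adjusted p = 1.54e-05). With all reads these were 0.37 (SE 0.134, adjusted p = 0.148) and 0.16 (SE 0.095, adjusted p = 0.329), and neither was called. With reads that map to 1 place and without the libraries apart, which include DMSO replicate 1 at 0 h, its highest library there, the chase changes were −1.10 (SE 0.098, adjusted p = 3.31e-16) and −0.39 (SE 0.091, adjusted p = 0.0011), their difference 0.70 (SE 0.134, adjusted p = 1.83e-04) and the difference at 12 h 0.55 (SE 0.093, adjusted p = 2.73e-06), all called.

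The multimapping reads took another course. They gave 106, 115, 139 and 139 CPM at 0 h and 110, 112, 117 and 109 CPM at 12 h in DMSO, and 108, 103, 121 and 100.2 CPM and 70, 77.7, 89 and 96.2 CPM under STM2457. In DMSO the ends overlapped, and under STM2457 the 12 h libraries were all the lower. As a share of Ccnb1 reads, multimapping reads were 31 ± 4.09% in DMSO and 30.9 ± 2.58% under STM2457 at 0 h. At 8 h they were 41.5 ± 1.68% and 30.4 ± 1.65%, and at 12 h 46.9 ± 1.67% and 31 ± 1.67%. At 12 h, DMSO libraries ran from 44.8 to 48.6% and STM2457 libraries from 28.8 to 32.5%. Their share was low at 1 h in both treatments (25.3 ± 7.97% and 24.3 ± 7.76%), where libraries stood apart. Which other places share these reads, and whether transcripts of those places account for the share, was not tested, so that the level of Ccnb1 counted with all reads is uncertain.

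**Figure D2:**
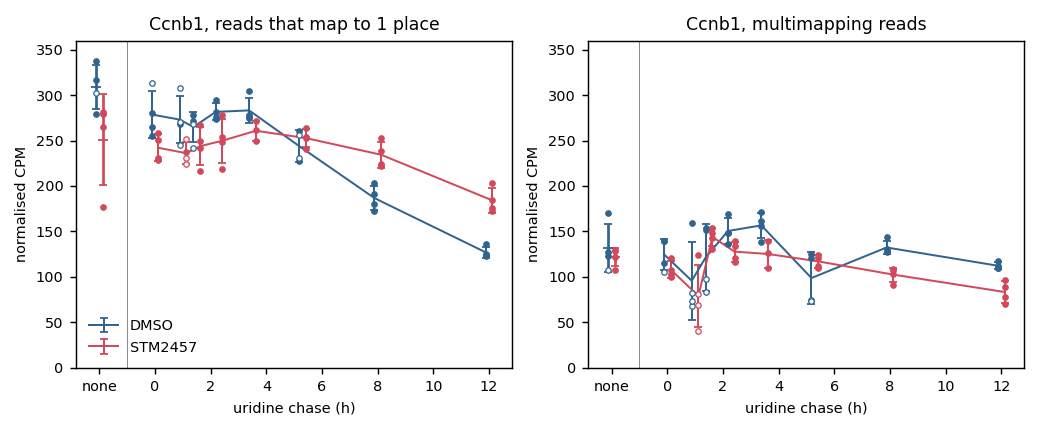
Normalised CPM of Ccnb1 against hours of chase for reads that map to 1 place (left) and multimapping reads (right), with points for libraries (open where they stood apart), lines through group means and bars for SDs. At 12 h the reads that map to 1 place averaged 127 CPM in DMSO and 184 CPM under STM2457.

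The difference between treatments in the change from 0 to 12 h, tested with all reads, was called for 0 of 8 cyclins by edgeR and by DESeq2, with 1.11% of all genes called by edgeR. An unadjusted p under 0.05 was found for 2, Ccnb1 and Ccnf, the latter with a log2 difference of 0.36 (SE 0.157, adjusted p = 0.261). The median was 0.10 over the cyclins and −0.03 over all genes. For Ccna2 and Ccnd1, called over the chase in DMSO alone, the differences were 0.11 (SE 0.159, adjusted p = 0.825) and 0.08 (SE 0.137, adjusted p = 0.854), so a difference between treatments is not shown.

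Ccnb1 and Ccnf were called as falling over the chase in both treatments, and their promoters are shown with that of Ccnb2, which was not called. The log2 fold changes of Ccnb2 were −0.10 (SE 0.133) in DMSO and −0.08 (SE 0.134) under STM2457. RefSeq entries on GRCm38.p6, covering 250 bases before to 50 after a gene's start, were found for 5 of the 9 cyclins, Ccnb1, Ccnb2, Ccnf, Ccne1 and Ccnd3. All 3 shown lie on the minus strand and are written 5′ to 3′ on it: Ccnb1 at chr13:100786437-100786736, Ccnb2 at chr9:70421505-70421804 and Ccnf at chr17:24251360-24251659. Capitals mark the letters CCAAT, the CCAAT box bound by NF-Y, and TTTGAA, a form of the core of the cell cycle homology region. That region is known from promoters of late cell cycle genes. Both sets of letters were searched on both strands (ATTGG and TTCAAA in reverse), with no overlap of their letters in these sequences.
Ccnb1: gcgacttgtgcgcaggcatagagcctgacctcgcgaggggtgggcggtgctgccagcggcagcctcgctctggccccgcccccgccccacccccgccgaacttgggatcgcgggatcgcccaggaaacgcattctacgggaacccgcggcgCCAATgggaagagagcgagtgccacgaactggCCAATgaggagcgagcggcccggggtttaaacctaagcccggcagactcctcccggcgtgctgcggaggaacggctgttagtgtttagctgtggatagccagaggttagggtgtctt
Ccnb2: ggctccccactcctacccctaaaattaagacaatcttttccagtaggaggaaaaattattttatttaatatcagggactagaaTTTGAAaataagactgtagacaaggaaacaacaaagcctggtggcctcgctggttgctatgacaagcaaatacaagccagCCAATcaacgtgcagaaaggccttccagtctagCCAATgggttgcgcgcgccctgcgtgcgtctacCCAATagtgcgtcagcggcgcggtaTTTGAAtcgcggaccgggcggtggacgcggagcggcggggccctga
Ccnf: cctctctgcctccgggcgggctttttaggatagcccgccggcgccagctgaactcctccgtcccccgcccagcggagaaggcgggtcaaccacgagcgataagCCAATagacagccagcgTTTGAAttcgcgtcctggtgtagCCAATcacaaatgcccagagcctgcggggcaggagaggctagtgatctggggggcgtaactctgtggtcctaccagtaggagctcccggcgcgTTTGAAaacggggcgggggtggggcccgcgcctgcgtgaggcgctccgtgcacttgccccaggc
CCAAT was present 2 times in Ccnb1, 3 times in Ccnb2 and 2 times in Ccnf. TTTGAA was present 2 times each in Ccnb2 and Ccnf and 0 times in Ccnb1. Other forms of this element were not searched, so 0 matches do not show that Ccnb1 lacks it. Of 32851 promoters of the same length, 37.4% held CCAAT or ATTGG, 17.9% held TTTGAA or TTCAAA, and 6.95% held both. Of the 2 further cyclins with entries, Ccne1 and Ccnd3, neither of which was called as falling, Ccne1 had 0 of either and the 2 entries of Ccnd3 had 0 and 1 CCAAT and 0 TTTGAA. These matches are letters in a window, and whether they have a part in the levels was not tested.

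The third question was how fast the cyclin mRNAs decayed. The overall conversion rate at 0 h was 1.37 ± 0.0668% of covered T positions in DMSO and 1.28 ± 0.0728% under STM2457 (SD, n = 4), against 0.0814 ± 0.0044% and 0.0829 ± 0.0081% without s4U. Half-lives came from an exponential fit to mean rates after subtraction of the unlabelled rate. Their spread came from fits to 4 series of libraries with the same replicate number. The rate is a share of all covered T positions of a gene, so its loss measures decay only where the level is steady. Ccnb1 and Ccnf fell over the chase, and Ccnd2 in DMSO peaked at 318 CPM at 5.3 h. The fits do not take such changes in level into account. Over 7408 genes the median half-life was 3.19 h in DMSO and 3.45 h under STM2457. In DMSO, Ccnd2 had 2.84 h, Ccnb1 2.99 h, Ccne1 3.01 h and Ccnf 3.07 h, all below that median. Rates of Ccnb1 include multimapping reads, whose share in DMSO was 31% at 0 h and 46.9% at 12 h. Its half-life and slope are therefore uncertain. Ccnd1 had 3.46 h, Ccna2 3.87 h, Ccnb2 4.38 h and Ccnd3 5.57 h. SDs over the series ran from 0.209 h (Ccnb1) to 3.03 h (Ccnd3), and neighbours in this order differed by less than their spread.

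Under STM2457, the half-life was 3.22 h for Ccnd2, 3.13 h for Ccnb1, 3.73 h for Ccne1, 3.39 h for Ccnf, 3.3 h for Ccnd1, 3.79 h for Ccna2, 3.77 h for Ccnb2 and 3.93 h for Ccnd3. The widest gap between treatments was that of Ccnd3, whose 4 series gave 5.72, 10.9, 3.79 and 5.67 h in DMSO and 3.22, 3.77, 3.78 and 5.09 h under STM2457. These series overlapped, and the DMSO mean leans on the second. For Ccne1 the series gave 3.85, 3.1, 2.73 and 2.6 h in DMSO and 4.46, 3.94, 3.38 and 2.99 h under STM2457. The ranges overlapped, while within each number the STM2457 value was the longer. The difference in decay slope between treatments was called by limma for 0 of 8 cyclins and 2.01% of the 8105 genes tested. An unadjusted p under 0.05 was found for 1, Ccnb2, and limma on the half-lives of the series called 0 genes. On simulated data the slope comparison also called genes with equal decay, at a share near that called here, so that its calls carry little weight.

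Ccnb2 had slopes of −0.31 per hour in DMSO and −0.43 under STM2457 on the log2 scale, a difference of −0.12 (SE 0.038, adjusted p = 0.054 in limma). Its conversion rate in the 4 DMSO libraries at 12 h was 0.529, 0.28, 0.161 and 0.201%, and under STM2457 0.106, 0.206, 0.0622 and 0.0343%, while unlabelled cells had up to 0.371%. The groups overlapped, with replicate 1 the highest in DMSO. The difference was called with a rate floor of 0.0002 (−0.18, adjusted p = 0.0066) and without replicate 3 (−0.20, adjusted p = 0.0041), and was −0.02 without replicate 1. The unlabelled mean enters every library of a treatment alike, and its error is not part of these p-values.

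Label loss did not follow 1 exponential. Of the rate at 0 h, the median gene kept 59.5% at 3.5 h and 14.5% at 5.3 h in DMSO, and 60.2% and 18.3% under STM2457. At 5.3 h in DMSO, Ccnd1 kept 8.5%, Ccnd2 8%, Ccne1 7.7%, Ccnb1 9.5% and Ccnf 7%, whereas Ccna2 kept 26.5%, Ccnb2 37.2% and Ccnd3 48.1%. Under STM2457 the values were 10.6%, 22.4%, 9.4%, 8.6% and 11.2% for the first 5, and 23.1%, 37.7% and 17.8% for Ccna2, Ccnb2 and Ccnd3. Per library, Ccnd2 had conversion rates of 0.135, 0.146, 0.173 and 0.162% in DMSO and 0.338, 0.376, 0.191 and 0.282% under STM2457, and Ccnd3 0.385, 0.635, 0.572 and 0.758% and 0.221, 0.128, 0.357 and 0.481%. For Ccnd2 no DMSO library reached the lowest STM2457 library, and for Ccnd3 the groups overlapped. The level of Ccnd2 differed at the same time, 318 CPM in DMSO and 187 CPM under STM2457. Whether new unlabelled RNA has a part in its lower DMSO rate was not tested. At 8 h Ccnd2 kept 5.2% in DMSO and 8.1% under STM2457, and Ccnd3 19.2% and 18.3%. The 5.2% of Ccnd2 leans on replicate 2, at 0.2955%. Replicates 1, 3 and 4 had 0.0806, 0.0454 and 0.0612%, and the unlabelled mean in DMSO was 0.059%. At 12 h, Ccnd2 kept 5% and 1.4%, the reverse order, and Ccnd3 3.6% and 4.5%. The 3.6% of Ccnd3 leans on single libraries. In DMSO its libraries had 0.0161, 0.2469, 0.1374 and 0.1036% at 12 h, and 0.1971, 0.0444, 0.0654 and 0.0467% without s4U. Slopes from 0 to 5.3 h differed by 0.23 for Ccnd2 (adjusted p = 0.237 in limma) and −0.31 for Ccnd3 (adjusted p = 0.202), which were not called, and 5.3 h was not tested by itself.

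**Figure D3:**
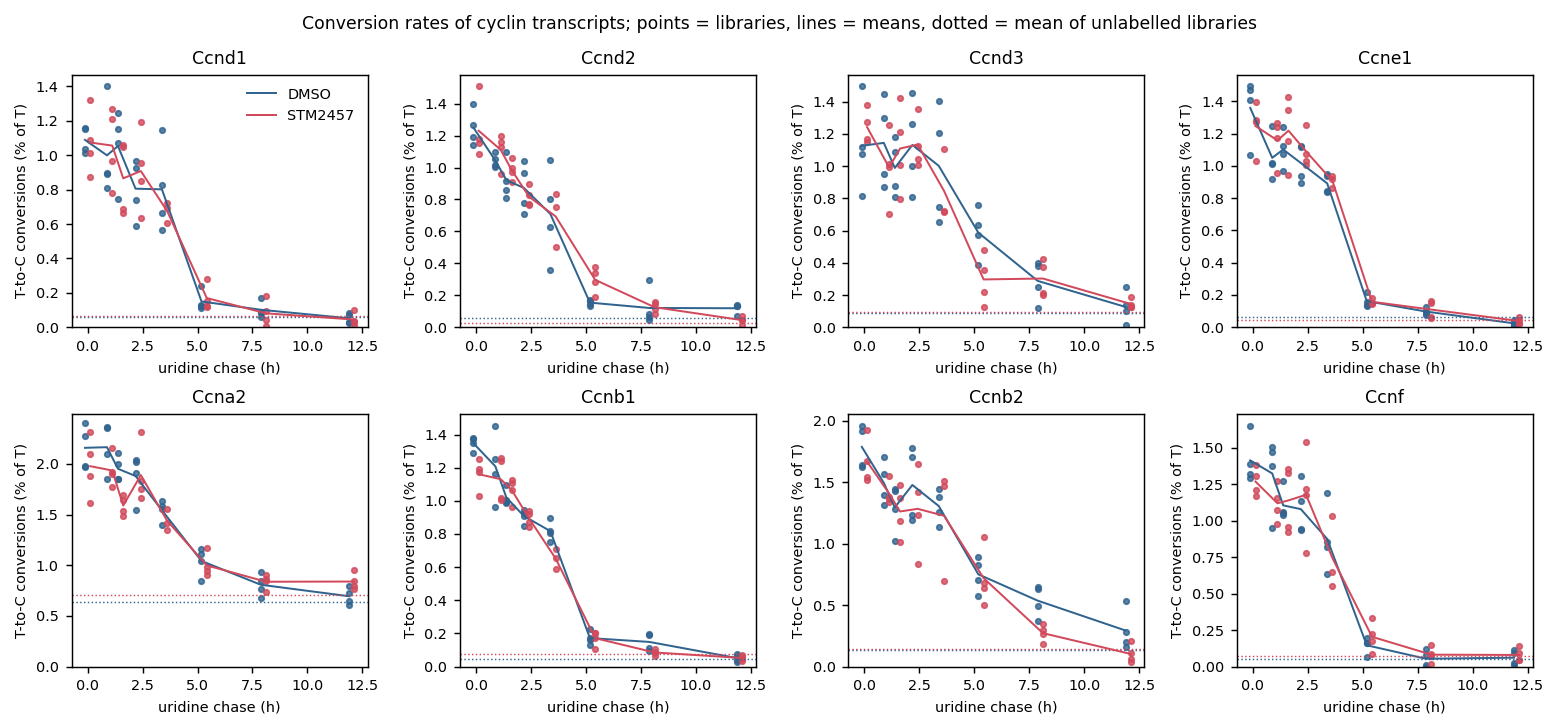
T-to-C conversions as a percent of covered T positions against hours of chase for 8 cyclins in DMSO (blue) and under STM2457 (red). Points are libraries, lines join group means and dotted lines are means of the 4 unlabelled libraries per treatment. At 5.3 h Ccnd3 kept 48.1% of its 0 h rate in DMSO and 17.8% under STM2457, and Ccna2 levelled off near a high unlabelled rate.

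Ccna2 also differed from the other cyclins without any label. In the 8 libraries without s4U, 0.534 to 0.898% of its covered T positions read as C, and 11.4 to 20% of its reads carried a conversion. Pooled over these libraries its rate was 0.663%, against a median of 0.065% and a 95th percentile of 0.212% over 8156 genes, and 73 of them (0.895%) were at or above Ccna2. Whether a sequence variant that escaped masking, an editing site or misplaced reads gives this was not tested. The subtraction matters for this gene: without it, its half-life was 6.63 h in DMSO and 7.61 h under STM2457.

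Other genes of the cyclin and kinase system were taken from fixed lists, and are given for the mean over the chase (STM2457 against DMSO) and for 12 against 0 h in DMSO, with log2 fold changes and adjusted p-values from edgeR. Beside all counts of this kind stand the shares of all genes, 26.5% called for treatment and 13% with time in DMSO. Of 17 other cyclins, 3 were higher and 4 lower over the chase, among them Ccng1 (−0.58, adjusted p = 4.00e-14), a p53 target, Ccnl2 (0.40, adjusted p = 1.23e-12), a splicing cyclin, and Ccnt1 (0.25, adjusted p = 2.19e-08), the P-TEFb subunit. With time in DMSO 1 rose and 4 fell, including Ccnq (−1.70, adjusted p = 5.10e-09), Ccnjl (1.41, adjusted p = 6.72e-05) and Ccnt1 (−0.50, adjusted p = 1.06e-04). Of the 4 kinases of the cycle, Cdk1 (0.23, adjusted p = 0.0027), the mitotic kinase, was higher and Cdk6 (−0.27, adjusted p = 0.0074), a partner of D-type cyclins, lower under STM2457, and with time in DMSO Cdk1 (−0.88, adjusted p = 1.83e-04) fell. Of 7 kinase inhibitors, Cdkn2d (0.35, adjusted p = 1.86e-07) was higher and Cdkn1a (−0.35, adjusted p = 2.50e-05), which encodes p21, lower, and with time in DMSO edgeR and DESeq2 called 0 of them, with an unadjusted p under 0.05 for 2 and 1 called without the libraries apart. Median log2 fold changes for treatment were −0.02 for the other cyclins, 0.09 for the kinases and −0.11 for the inhibitors, and with time −0.29, 0.17 and −0.16, beside −0.01 and 0.04 over all genes. The treatment calls of the kinases went from 2 to 0 without the libraries apart.

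Of 10 regulators of kinase activation, 1 was higher and 4 lower under STM2457 (26.5% of all genes were called). Both partners of Cdk7 in the activating kinase were lower, Mnat1 (−0.48, adjusted p = 1.06e-11) and Ccnh (−0.40, adjusted p = 3.20e-07), as was the phosphatase Cdc25c (−0.50, adjusted p = 2.34e-06). With time in DMSO 5 fell (13% of all genes were called), led by Cks2 (−1.73, adjusted p = 9.81e-18), Cks1b (−0.45, adjusted p = 5.52e-04) and the inhibitory kinase Wee1 (−0.72, adjusted p = 6.69e-04). Of 17 genes of cyclin destruction, 2 were higher and 2 lower under STM2457, a share near that of all genes, among them Fbxo5 (0.54, adjusted p = 2.12e-13), an inhibitor of the anaphase-promoting complex, Ube2c (−0.27, adjusted p = 4.46e-12), the ubiquitin-conjugating enzyme of that complex, and its activator Cdc20 (−0.31, adjusted p = 0.001). With time in DMSO 4 fell, including Ube2c (−1.02, adjusted p = 2.77e-16), Fbxo5 (−0.84, adjusted p = 1.82e-05) and Ube2s (−0.76, adjusted p = 1.00e-04). The medians were −0.10 and −0.04 for treatment and −0.48 and −0.19 with time.

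Against 26.5% of all genes called for treatment and 13% with time, 2 of 17 genes in the retinoblastoma and E2F list were higher and 4 lower under STM2457, with Rb1 (−0.70, adjusted p = 1.80e-05), the D-type cyclins' main target, Tfdp2 (−0.62, adjusted p = 5.53e-05) and Foxm1 (0.36, adjusted p = 9.17e-05). With time in DMSO E2f1 (1.42, adjusted p = 4.70e-07) rose and E2f3 (−1.98, adjusted p = 4.87e-07) and E2f4 (−1.05, adjusted p = 2.96e-06) fell. Of 20 S phase genes 1 was higher, Fen1 (0.50, adjusted p = 2.94e-14), and 11 were lower, including Mcm5 (−0.27, adjusted p = 1.78e-10) and Cdc45 (−0.35, adjusted p = 3.52e-07), and with time 5 fell, including Pcna (−0.97, adjusted p = 3.32e-05), Mcm4 (−0.64, adjusted p = 0.001) and Rrm2 (−0.38, adjusted p = 0.0011). Of 20 G2 and mitosis genes, 1 was higher and 6 lower under STM2457, among them Nusap1 (−0.45, adjusted p = 2.72e-12), Ube2c and Hmmr (−0.50, adjusted p = 6.31e-10). With time in DMSO 13 of these 20 fell and 0 rose, led by Aurka (−1.71, adjusted p = 1.78e-21), Cks2 and Ube2c. The medians for treatment were −0.11, −0.16 and −0.05, and with time −0.10, −0.20 and −0.78. Without the libraries apart, calls went from 6 to 3 in the retinoblastoma and E2F list for treatment, from 12 to 11 in the S phase list for treatment, and from 13 to 16 in the G2 and mitosis list with time. Ccnh, Cks2 and Ube2c each stand in more than 1 list and are counted in each. In these 8 lists limma called 0 differences in decay slope, beside 2.01% of the 8105 genes tested. An unadjusted p under 0.05 was found for 2 other cyclins, 1 kinase, 1 activation gene, 1 destruction gene, 2 S phase genes and 1 G2 and mitosis gene.

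Markers place the samples. Of the mESC markers, 9 of 10 were measured, and they summed to 3790 to 5550 CPM per library in DMSO, median 4660, and to 4050 to 5160 CPM under STM2457, median 4480, with Dppa5a the most abundant (2740 and 2640 CPM), and 0 of them under 1 CPM in both treatments. Endoderm markers (6 genes) summed to medians of 5.18 and 7.45 CPM, from 1.15 to 14.8 and 2.64 to 12.1, mostly Gata4, with 4 under 1 CPM in both treatments. Of the primed and germ layer markers, 8 of 10 were measured, and they summed to medians of 300 and 220.0 CPM, from 244 to 414 and 171 to 345, of which Dnmt3b gave 259 and 186 CPM, and Fgf5 and Mesp1 were under 1 CPM. Fibroblast markers (6 genes) summed to medians of 10.6 and 12.6 CPM, from 4.09 to 21.2 and 5.51 to 23.2, nearly all Thy1, while Postn had 0 reads and Col3a1 4 reads in all libraries.

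Some of these markers were called in the comparisons above, in which 26.5% of all genes were called for treatment and 13% with time in DMSO. Under STM2457, 4 of 9 tested mESC markers were higher and 1 lower, with Esrrb (0.64, adjusted p = 1.42e-17), Zfp42 (0.69, adjusted p = 3.08e-12) and Tdgf1 (−0.44, adjusted p = 4.19e-11), and of 7 tested primed and germ layer markers 3 were lower, Dnmt3b (−0.52, adjusted p = 1.50e-17), T (−0.44, adjusted p = 2.71e-04) and Nes (−0.34, adjusted p = 0.0022). With time in DMSO, 5 mESC markers fell, including Tdgf1 (−1.30, adjusted p = 9.05e-11), Pou5f1 (−0.44, adjusted p = 8.42e-06) and Zfp42 (−1.08, adjusted p = 8.23e-05). So did 3 primed markers, Otx2 (−2.72, adjusted p = 6.79e-06), Pou3f1 (−2.61, adjusted p = 1.21e-04) and Dnmt3b (−0.49, adjusted p = 6.66e-04). Otx2 and Pou3f1 were low, with means over the DMSO libraries of 4.77 and 3.37 CPM, against 259 CPM for Dnmt3b. Of the primed markers, 1 was called for treatment without the libraries apart. By edgeR and by DESeq2 0 of 2 tested endoderm and 0 of 2 tested fibroblast markers were called in either comparison, with an unadjusted p under 0.05 for 0 and 1 for treatment and 1 and 1 with time. In the decay slope limma called 1 of 8 tested mESC markers, Pou5f1 (−0.06 per hour, adjusted p = 0.0037), beside 2.01% of the 8105 genes tested. As stated above, calls of this slope comparison carry little weight. The median log2 fold changes for treatment were 0.09 (mESC), 0.57 (endoderm), −0.01 (primed) and −0.23 (fibroblast), and with time −0.44, 1.36, −0.85 and −1.27. Whether a shift of cell state has a part in the cyclin differences was not tested.

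By the correlation of mean log2 CPM over the 18 groups, among 7952 genes with at least 10 CPM, the genes with the pattern most like each cyclin were Nap1l1 (0.904) and Lsm5 (0.896) for Ccnd1, Sort1 (0.845) and Ank3 (0.844) for Ccnd2, and Ptov1 (0.895) and Atic (0.877) for Ccnd3. For Ccne1 they were Aldoa (0.947) and Tbc1d13 (0.936), and for Ccna2 Lhpp (0.971) and Cct6a (0.97). For Ccnb1 they were Prr11 (0.934) and Prc1 (0.9), for Ccnb2 Psmc2 (0.917) and Ndufa8 (0.896), and for Ccnf Pigm (0.96) and Ppp4r3b (0.94). Among the cyclins themselves the highest value was 0.73, between Ccna2 and Ccnf, and the lowest −0.59, between Ccnd2 and Ccne1. These groups share libraries that stood apart.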

How the data were processed

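The 71 SLAM-seq libraries were grouped by treatment and chase time from their labels. The hours of chase come from the figures of the paper and their source data, and the labels give only the order of the times. The authors mapped reads with SLAM-DUNK to GRCm38.p6 (build from the submitters' processing notes, which also name FastQC 0.11.8), allowing multiple places, left out variants seen in unlabelled cells, and counted on 3′ UTR windows collapsed per gene. They deposited raw counts of reads, converted reads, multimapping reads, covered T positions and conversions per gene, without normalization. Also deposited is a conversion rate, a fraction that equals conversions divided by covered T positions. No molecular identifiers are mentioned. Gene positions came from GENCODE M21 on GRCm38.

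Read counts were compared with edgeR 4.0.16 in R 4.3.3 (TMM, filterByExpr, quasi-likelihood test on 18 group means, Benjamini-Hochberg adjustment over 12659 genes, threshold 0.01). The mean over the chase weights 8 times equally. Decay slopes were compared with limma 3.58.1 on log2 of the conversion rate minus the mean unlabelled rate of the treatment, floored at 0.0005, with slopes per hour of chase over 63 labelled libraries, in genes with a mean of over 1000 covered T positions in both treatments. Half-lives followed the study's method, an exponential fit fixed at 1 at 0 h (T coverage over 100, half-life from 0.67 to 18 h, residual standard error at most 0.3 in both treatments), with Python 3.11.15, numpy 2.4.6, pandas 2.3.3 and matplotlib 3.10.9. Promoter sequences are from RefSeq. Both the count test and the decay steps were tested on simulated data. There the slope comparison also called genes with equal decay, at a share near that called in the data, so that its calls carry little weight. The error of the unlabelled mean is shared by all libraries of a treatment and is not in its p. Slopes from 0 to 3.5 h alone and with 1 background for both treatments were added as alternatives after this.

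Alternatives were DESeq2 1.42.0, no filter on low counts, a threshold of 0.05, reads that map to 1 place, the replicate number as a block, leaving out replicates or libraries, the libraries of 1 time alone, other floors, coverages and times for the slopes, and pooled or unsubtracted rates for half-lives. Chosen after seeing the data were the fits without the 12 libraries apart (with all reads and with reads that map to 1 place), from 0 to 3.5 h, with 1 background, and of series half-lives with a replicate block. The libraries apart were found on the leading component of log2(CPM + 1) of genes with a mean of at least 3 on that scale.

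Named genes are the 9 cyclins and, per list and for 3 comparisons (mean over the chase, 12 against 0 h in DMSO, decay slope), up to 3 called genes with the smallest p. For each cyclin, the 2 genes with the most similar pattern are also named. The members and lists were chosen with earlier results of these data known.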

Additional observations from a re-analysis of the deposited data

Results flagged for a closer look

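The change of Ccnb1 over the chase, counted with reads that map to 1 place, differed between treatments by 0.79 on the log2 scale (STM2457 minus DMSO, adjusted p = 8.89e-05 in edgeR). The share of Ccnb1 reads that map to more places differed alongside, 46.9% in DMSO against 31% under STM2457 at 12 h, and the part of those reads in the difference was not tested.

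Single libraries far from the other 3 of their group, with a gap above the 1 in 20 critical value of Dixon's test for 4 values, were found in 15 of 272 groups of 4 (8 cyclins, CPM and conversion rate), where chance gives about 1 in 20, or 13.6. In CPM they were Ccnd1 in STM2457 at 1.5 h, replicate 4 (188), Ccnd2 in DMSO at 1.5 h, replicate 1 (207) and at 12 h, replicate 2 (204), Ccnd3 in DMSO at 0 h, replicate 4 (104), Ccne1 in DMSO at 8 h, replicate 1 (214), Ccna2 in DMSO at 3.5 h, replicate 1 (165), Ccnb2 in DMSO at 8 h, replicate 1 (84.4), and Ccnf in DMSO at 0 h, replicate 2 (149). As conversion rates in percent they were Ccnd1 in DMSO at 1 h, replicate 3 (1.40) and at 5.3 h, replicate 2 (0.241), Ccnd2 in DMSO at 8 h, replicate 2 (0.295) and at 12 h, replicate 3 (0.0683), Ccnd3 in DMSO without s4U, replicate 1 (0.197), Ccnb1 in DMSO at 1.5 h, replicate 3 (1.09), and Ccnf in DMSO at 1.5 h, replicate 1 (1.27).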

How the results depend on the processing

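For single cyclins, 1229 values under the alternatives kept their direction and side of the threshold, 30 lost a call, 13 gained one and 56 changed sign, mostly values near 0. Ccna2, Ccnd2, Ccnd3 and Ccnb2 were called in the mean over the chase in 6 of 6 alternatives to the count fit and 4 of 4 fits without a replicate number, and Ccnf over the chase in both treatments in 6 of 6 and 12 of 12. Of the half-lives, 107 moved by less than 1 SD of their series and 5 by more, including Ccna2 without background and Ccnb1 in DMSO without 3.5 h (2.70 h).

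The number of cyclins called over the chase in DMSO ranged from 2 to 4 with libraries left out. Under STM2457 it went from 2 to 3 at a threshold of 0.05, and without the libraries apart with reads that map to 1 place (Ccna2 added in both), and to 1 with no filter, and ranged from 1 to 2 with libraries left out. At 0 h 1 cyclin was called at a threshold of 0.05, 1 by DESeq2, and 0 to 1 with libraries left out (Ccna2 without DMSO replicate 3). With reads that map to 1 place, 1 was called at 12 h and 1 for the difference between treatments (Ccnb1 in both), also without the libraries apart. For the label under STM2457, 1 was called without the libraries apart, with all reads and with reads that map to 1 place. For the decay slope, 1 was called with a floor of 0.0002 and 0 to 1 without a replicate number. Apart from the Ccnb1 counts, where the kind of read differs, the cause was not tested.

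Without the libraries apart the sign changed over the chase in DMSO for Ccnd2 (−0.01), and in cells without s4U for Ccnd3 (−0.01), Ccne1 (−0.01) and Ccnf (0.02), and in the same fit with reads that map to 1 place for Ccnd2 (−0.01), Ccnd3 (−0.01), Ccne1 (−0.0001) and Ccnf (0.03) in these comparisons and for Ccnb1 in the mean over the chase (0.02). With reads that map to 1 place it changed for Ccnb1 in the mean over the chase (0.01; 0.008 before rounding) and for Ccnd1 without s4U (−0.01). Slope differences changed sign for Ccna2 at 0 to 5.3 h (−0.021), Ccnd1 (−0.028) and Ccnd2 (0.014) at 0 to 3.5 h, Ccnd2 at 0 to 5.3 h (0.231), Ccnb1 (0.007) and Ccne1 (−0.004) with a floor of 0.001, Ccnd3 (0.004) and Ccnf (−0.003) with a floor of 0.0002, and Ccnb1 (0.056), Ccnd1 (−0.055) and Ccnd2 (0.171) as log2 half-lives of the series, with or without a replicate block. With replicates or libraries left out, log2 fold changes ranged over the chase in DMSO from −0.20 to 0.03 (Ccnb2), −0.01 to 0.14 (Ccnd2) and −0.05 to 0.11 (Ccnd3), over the chase under STM2457 from −0.19 to 0.07 (Ccnb2), for the difference of these from −0.07 to 0.14 (Ccnb2) and −0.07 to 0.10 (Ccne1), at 0 h from −0.12 to 0.01 (Ccnd3), at 12 h from −0.003 to 0.16 (Ccne1), without s4U from −0.01 to 0.04 (Ccnd3), −0.03 to 0.16 (Ccne1) and −0.09 to 0.04 (Ccnf), for the label in DMSO from −0.16 to 0.02 (Ccna2) and −0.22 to 0.09 (Ccnb2), under STM2457 from −0.004 to 0.12 (Ccnb2), and for slopes from −0.001 to 0.102 (Ccna2), −0.034 to 0.01 (Ccnd2) and −0.055 to 0.028 (Ccnd3). For these the cause was not tested.

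Counts of all genes called differed by over 1.5 times as follows. A threshold of 0.05 gave 2856 in place of 1651 over the chase in DMSO, 1205 in place of 598 under STM2457, 283 in place of 140 for the difference, 461 in place of 213 at 0 h, 1258 in place of 685 at 12 h, 743 in place of 326 without s4U, 157 and 189 in place of 65 and 66 for the label, and 303 in place of 163 for slopes. DESeq2 gave 112 and 125 for the label. Without the libraries apart, counts were 1103 over the chase under STM2457, 236 for the difference, 1088 at 12 h, 99 and 216 for the label and 74 for slopes, and with reads that map to 1 place as well 989 over the chase under STM2457, 1052 at 12 h and 182 for the label under STM2457. Slopes gave 0 at 0 to 3.5 h, 1 at 0 to 5.3 h, 302 and 68 with floors of 0.0002 and 0.001, and 0 for series with or without a replicate block. With fewer libraries, counts went down to 857 and 179 over the chase in DMSO and under STM2457, 40 for the difference, 80 at 0 h, 352 at 12 h, 103 without s4U, 14 and 9 for the label and 66 for slopes.

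Replicates are numbered 1 to 4 in the labels of either treatment. In read counts, same-numbered libraries of a time deviated together little on average. The correlation of their deviations from group means was over 0.1 in 7 of 35 pairs, with a mean of 0.029 (−0.211 to 0.497). For replicates 1 to 4 it was 0.153, 0.09, 0.19 and 0.144 at 0 h, and 0.117, 0.097, −0.03 and 0.133 without s4U. In the overall conversion rate, same-numbered libraries deviated together in part. Over 31 pairs of labelled libraries the correlation of deviations was 0.56, it was over 0.1 at 7 of 8 times (−0.94 to 0.90), and replicate 1 was lowest in both treatments at 3 times. With the number as a replicate block, chosen after seeing the data, limma on the half-lives of the series called 0 cyclins and 0 genes, and Ccne1 had a log2 ratio of 0.267 (SE 0.209, adjusted p = 0.887). The replicate block gave 5 cyclins called in the mean over the chase, 4 and 2 over the chase in DMSO and under STM2457, and 0 elsewhere, with 3375 genes in place of 3357 in the mean over the chase and 170 in place of 163 for slopes, and under the block the difference of chase changes for Ccne1 was −0.001 in place of 0.003. Ccne2, with 117 reads in all, was too low to be tested under any of these settings.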
